A study of Mus musculus with 18 samples.

Results

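Among the 55335 genes counted in 12 mouse liver tumour libraries, 10 genes, several of them better known from brain, muscle, embryo or tooth, were present in tumours driven by N-Ras and AKT and were much lower where the Prom1-expressing cells had been ablated. The genes are Pthlh, Megf10, Grik3, Kcnma1, Diras2, Rgs7bp, Tbx1, Gal3st2c, Wdr72 and Plekhd1. They were picked from these same libraries, by a high level in the N-Ras+AKT controls and a fall after ablation, with no numeric threshold stated. Values that involve N-Ras+AKT libraries are therefore given for them as a description, with no test, and the DEN+CCl4 ablation comparison is the 1 contrast in which they were tested. All 10 passed the filter on low counts that left 17013 genes, 7 of them only through N-Ras+AKT libraries.

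The bulk libraries were made from hepatocellular carcinomas of 2 models, with 3 libraries in each of 4 groups. N-Ras+AKT tumours arose after hydrodynamic injection, a fast injection of a large volume into the tail vein that carries DNA into hepatocytes. It delivered 20 µg each of plasmids for N-RasV12 and myristoylated AKT under the EF1a promoter, with 1.6 µg of the Sleeping Beauty transposase that inserts them into the genome. DEN+CCl4 tumours arose after a dose of 1 mg/kg of the carcinogen N-nitrosodiethylamine when the mice were 14 days old, followed from week 8 of life by carbon tetrachloride, which injures the liver, at 0.2 ml/kg for 12 to 16 weeks. In the depletion groups, mice of genotype Prom1C-L/+;Rosa26DTA/+ received repeated 4 mg doses of tamoxifen once tumours had formed, which activates a Cre recombinase made from the Prom1 locus and switches on diphtheria toxin A in cells that express Prom1. Tissue was taken 6 days after the last dose in the N-Ras+AKT model and 16 days after it in the DEN+CCl4 model. The sample labels assign Prom1C-L/+;Rosa26DTA/+ to the controls too, whereas the series' design text speaks of Prom1+/+;Rosa26DTA/+ littermates and of an olive oil vehicle, so what the controls lacked is not settled. The ablation acts on any cell that makes Prom1, bile duct cells included, and in whole tissue a loss of cells and less RNA per cell cannot be told apart. The labels do not say whether the 3 libraries of a group came from separate animals, and the p-values measure the spread between these libraries.

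Library totals ran from 31306617 to 48055812 counts. Prom1, the targeted gene, stood at 2.17 to 16.5 CPM (counts scaled to library size, with TMM factors) in the N-Ras+AKT depletion libraries and 45.4 to 78.3 CPM in their controls. In the DEN+CCl4 model it stood at 17.4 to 40.0 CPM in depletion libraries and 48.9 to 76.7 CPM in controls. On principal components, N-Ras+AKT depletion library 17 stood apart from its group on the second component and DEN+CCl4 depletion library 6 on the third, and results that rest on them are given with and without them.

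The word ectopic marks a gene that is expressed outside its usual tissue. Tumours often switch on genes of other lineages or of the embryo, and a few of these genes act outside the cell, as a hormone-like secreted protein does, or at its surface, as receptors and ion channels do. Activated Ras signals through the MAP kinase cascade, which ends in transcription factors such as AP-1 and the ETS factors, while AKT carries growth signals from PI3 kinase. Whether the 10 genes are silent in normal liver was not analysed here, and the comparison at hand is with tumours of the other model. By that measure 7 of the 10, Pthlh, Megf10, Grik3, Diras2, Gal3st2c, Wdr72 and Plekhd1, had at most 3 counts in every DEN+CCl4 library. Tbx1 and Kcnma1 had low counts there, and Rgs7bp was as abundant in the DEN+CCl4 controls as in the N-Ras+AKT controls, which goes against the label of an ectopic gene of N-Ras+AKT tumours.

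The 10 genes lie on 9 chromosomes. RefSeq promoter windows on GRCm38.p6 were matched for 8 of them, 9 windows in all because Tbx1 has a pair of starts, and only the 250 bases before each start were read. Megf10 and Wdr72 were not among the matches. Shown here are the windows with the most and, tied with Gal3st2c, the fewest CpG dinucleotides, Grik3 and Rgs7bp, with each CG in capitals. The Gal3st2c window follows, where capitals mark TTTATA, the letters TATAAA on the other strand. Then comes the stretch of Diras2 that holds, in capitals, the letters TGANTCA searched for AP-1, with any base at N. It is cut to 30 bases because it lies in an exon of the GENCODE M21 gene. All are written 5′ to 3′ on the gene's own strand.
Grik3 (chr4:125490446-125490695, plus strand): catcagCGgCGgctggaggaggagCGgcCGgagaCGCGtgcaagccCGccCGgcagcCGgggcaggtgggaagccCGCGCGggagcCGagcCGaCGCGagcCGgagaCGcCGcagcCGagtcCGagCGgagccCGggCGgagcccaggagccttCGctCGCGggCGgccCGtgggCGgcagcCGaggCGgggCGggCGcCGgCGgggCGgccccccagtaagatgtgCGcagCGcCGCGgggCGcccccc
Rgs7bp (chr13:105054931-105055180, minus strand): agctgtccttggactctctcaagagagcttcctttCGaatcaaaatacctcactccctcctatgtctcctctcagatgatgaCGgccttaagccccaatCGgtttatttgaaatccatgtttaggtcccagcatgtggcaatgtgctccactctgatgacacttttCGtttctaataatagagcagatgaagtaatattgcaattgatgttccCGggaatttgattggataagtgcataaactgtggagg
Gal3st2c (chr1:93990255-93990504, plus strand): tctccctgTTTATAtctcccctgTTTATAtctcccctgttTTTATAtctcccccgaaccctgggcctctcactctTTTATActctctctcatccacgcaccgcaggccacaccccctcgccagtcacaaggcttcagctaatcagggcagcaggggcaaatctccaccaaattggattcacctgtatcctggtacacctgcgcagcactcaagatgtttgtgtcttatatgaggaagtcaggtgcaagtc
Diras2 (chr13:52530930-52530959, minus strand): ggaatgattttTGATTCAtttaattttcag
These promoters were not of 1 kind. The Grik3 window had 42 CpG and 82.0% G+C, Kcnma1 had 31 CpG and 79.2% G+C, and Pthlh had 26 CpG and 75.2% G+C. At the other end Rgs7bp and Gal3st2c had 5 CpG each, Diras2 had 6, and the median over 32851 promoters was also 6, with 52.4% G+C. Plekhd1 had 11 CpG, and the Tbx1 windows had 17 and 10. There were 8 motifs read on both strands. The letters searched for AP-1, TGANTCA with any base at N, were in 1 of the 9 windows and in 6.75% of all promoters. That window was of Diras2, where they read TGATTCA, 112 bases before the start. Whether this is an AP-1 site was not tested. TATAAA was in 1 window, 4 times in that of Gal3st2c, and in 12.4% of all promoters. The motifs CRE (TGACGTC), ETS (CCGGAAG), FOX (TGTTTAC), SOX (ACAATGG), TEAD (ACATTCC) and E-box (CACGTG) were in none of the 9 windows, and each was in 2.78% to 6.91% of all promoters.

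**Figure D1:**
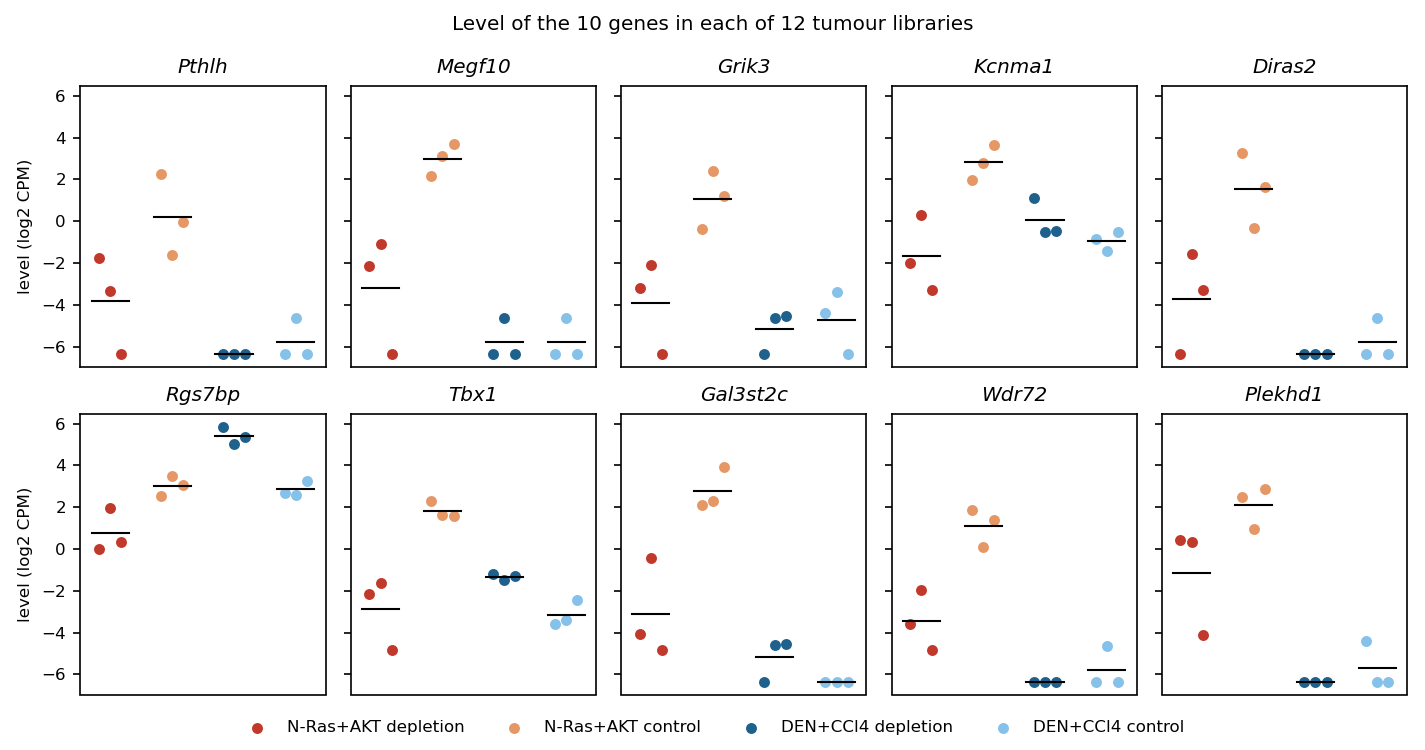
Level of each gene in the 12 libraries, as log2 CPM with a prior count of 0.5 (vertical axis), by group from left to right: N-Ras+AKT depletion, N-Ras+AKT control, DEN+CCl4 depletion and DEN+CCl4 control. Points are libraries and bars are means of 3; points at the bottom edge are libraries with 0 counts. In all 10 panels the 3 N-Ras+AKT depletion libraries lie below the 3 controls, and Rgs7bp alone is highest in the DEN+CCl4 depletion libraries.

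Pthlh (ENSMUSG00000048776.8, chromosome 6, 147252101 to 147264183, minus strand, GRCm38) codes for parathyroid hormone-related protein, a secreted factor that acts on cartilage and bone and, when tumours make it, can raise blood calcium. It had 0.287, 0.0881 and 0 CPM in N-Ras+AKT depletion libraries 6, 11 and 17, against 4.75, 0.313 and 0.949 CPM in controls 3, 10 and 15. The groups nearly met, since control 10 was hardly above depletion library 6, and control 3 held 288 of the 352 counts of the control group. The log2 fold change was -4.00 (SE 1.19), the largest SE among the 10. Without control 3 it was -2.32, and without depletion library 6 it was -5.40. All DEN+CCl4 libraries together held 1 count of it.

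Megf10 (ENSMUSG00000024593.15, chromosome 18, 57133090 to 57297467, plus strand) codes for a membrane receptor with EGF-like repeats, used by astrocytes to engulf dying cells and synapses and by muscle satellite cells. Its level was 0.215, 0.462 and 0 CPM in the depletion libraries and 4.50, 8.60 and 12.8 CPM in the controls. No depletion library came near a control, and control 15 was the highest. With a log2 fold change of -5.23 (SE 0.78) Megf10 fell furthest of the 10 and ranked 6 in size of fall among all genes tested. The N-Ras+AKT controls held 1374 counts and the DEN+CCl4 controls 1, a depth-scaled ratio of 826 with an exact 95% interval of 148 to 32657 that covers counting error only.

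Grik3 (ENSMUSG00000001985.9, chromosome 4, 125490700 to 125714173, plus strand) codes for a kainate-type glutamate receptor subunit of neurons. It had 0.0956, 0.220 and 0 CPM in the depletion libraries, against 0.759, 5.30 and 2.28 CPM in the controls. Control 10 was 6.98 times control 3, and both were above every depletion library (log2 fold change -4.67, SE 0.92). The DEN+CCl4 controls held 4 counts, which puts the N-Ras+AKT controls at 67.2 times their level (exact 95% interval 26.1 to 248). The processed pseudogene Ftl2-ps lies within Grik3 on the same strand and had 160 counts over the 12 libraries, so a few reads could have been shared.

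Kcnma1 (ENSMUSG00000063142.15, chromosome 14, 23289431 to 24014491, minus strand) codes for the pore of the BK potassium channel, which opens on depolarisation and calcium in neurons and smooth muscle. The depletion libraries had 0.239, 1.23 and 0.0902 CPM and the controls 3.94, 6.98 and 12.6 CPM (log2 fold change -3.90, SE 0.82). Library 11, the highest of the depletion group, was still below every control. Kcnma1 was not silent in the other model, where it had 2.12, 0.690 and 0.709 CPM in depletion libraries 6, 9 and 10 and 0.534, 0.358 and 0.694 CPM in controls 7, 8 and 13. The N-Ras+AKT controls were 14.4 times the DEN+CCl4 controls (exact 95% interval 10.9 to 19.4).

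Diras2 (ENSMUSG00000047842.7, chromosome 13, 52504380 to 52531279, minus strand) codes for a small GTPase of the Ras superfamily found mainly in brain. It had 0, 0.330 and 0.0902 CPM in the depletion libraries, against 9.67, 0.791 and 3.09 CPM in the controls. Control 3 was 12.2 times control 10, and the groups did not overlap (log2 fold change -4.96, SE 1.13). DEN+CCl4 tumours gave 1 count, in a control.

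Rgs7bp (ENSMUSG00000021719.9, chromosome 13, 104945904 to 105054930, minus strand) codes for a palmitoylated protein that anchors complexes of R7-type RGS proteins and the G protein subunit Gnb5 at the membrane of neurons. Its level was 1.00, 3.83 and 1.24 CPM in the N-Ras+AKT depletion libraries and 5.78, 11.4 and 8.26 CPM in their controls, without overlap (log2 fold change -2.06, SE 0.47). This was the smallest fall of the 10, rank 407 among all genes tested. The DEN+CCl4 libraries did the opposite, with 58.2, 32.2 and 40.6 CPM after depletion and 6.44, 6.07 and 9.58 CPM in controls. The level in N-Ras+AKT controls was 1.13 times that in DEN+CCl4 controls (exact 95% interval 1.04 to 1.24 for counting error), and the ranges of these 2 control groups overlap.

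Tbx1 (ENSMUSG00000009097.10, chromosome 16, 18580979 to 18590671, minus strand) codes for a T-box transcription factor of the pharyngeal arches, the gene behind most features of DiGeorge syndrome. It had 0.215, 0.308 and 0.0226 CPM in the N-Ras+AKT depletion libraries, against 4.92, 3.06 and 3.01 CPM in the controls. Its controls were the most even of the 10, with a highest value 1.63 times the lowest, and the fall had the log2 value -4.31 (SE 0.55). DEN+CCl4 tumours had 0.418, 0.345 and 0.401 CPM after depletion and 0.0712, 0.0827 and 0.174 CPM in controls, again with the depletion libraries on the higher side. The N-Ras+AKT controls were 33.5 times the DEN+CCl4 controls (exact 95% interval 18.6 to 67.5).

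Gal3st2c (ENSMUSG00000073608.4, chromosome 1, 93990509 to 94017147, plus strand) belongs to the galactose-3-O-sulfotransferases, enzymes that add sulfate to galactose on glycans. It had 0.0478, 0.727 and 0.0226 CPM in the depletion libraries and 4.22, 4.97 and 14.9 CPM in the controls (log2 fold change -4.88, SE 1.01). Library 11 held 33 of the 36 counts of the depletion group, and without it the log2 fold change was -7.72, the largest move among the 10 on leaving out 1 library. The DEN+CCl4 controls had 0 counts, so the N-Ras+AKT controls were at least 254-fold higher, taken against a floor of 3 counts over the group. Gal3st2c has near copies beside it on the chromosome, and how reads were split among them is uncertain. Gal3st2b, the nearest, had 13 counts in all. Gal3st2, a further copy on that stretch named after its values were seen, averaged 0.155 ± 0.229 CPM after depletion and 1.58 ± 1.37 CPM in controls of the N-Ras+AKT model (log2 fold change -3.30, SE 1.18, edgeR's adjusted p = 0.0655), and 0.0411 ± 0.0712 CPM after depletion and 0.0675 ± 0.117 CPM in controls of the DEN+CCl4 model (SD, n = 3 each).

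Wdr72 (ENSMUSG00000044976.17, chromosome 9, 74110356 to 74283308, plus strand) codes for a WD-repeat protein whose loss gives defective tooth enamel. Its values were 0.0717, 0.242 and 0.0226 CPM in the depletion libraries, against 3.58, 1.05 and 2.58 CPM in the controls (log2 fold change -4.37, SE 0.74). Plekhd1 (ENSMUSG00000066438.6, chromosome 12, 80692591 to 80724214, plus strand), a protein with a pleckstrin homology domain and coiled coil, had 1.31, 1.23 and 0.0451 CPM after depletion and 5.64, 1.91 and 7.21 CPM in controls. Its fall was uneven, since library 17 was far below libraries 6 and 11, and these 2 were close to control 10 (log2 fold change -2.51, SE 0.87). Each of these genes had 1 count in the whole DEN+CCl4 model.

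Across the 10 genes all 3 N-Ras+AKT depletion libraries were below all 3 controls, a pattern that 21.5% of all genes tested had and that the choice of the genes favoured. The log2 fold changes ran from -5.23 to -2.06, and from -4.72 to -1.81 without depletion library 17. Depletion library 17 was the lowest of its group for 8 of the 10 genes and library 6 for the other 2, Diras2 and Rgs7bp. Library 11 was the highest for 8, and library 6 for Pthlh and Plekhd1. Among the depletion libraries the sum of the 9 genes without Rgs7bp took the order of the Prom1 level. The sum was 0.293, 2.49 and 4.84 CPM in libraries 17, 6 and 11, and Prom1 was 2.17, 5.81 and 16.5 CPM. The controls did not keep this order. In controls 3, 10 and 15 Prom1 was 45.4, 59.2 and 78.3 CPM and the sum 42.0, 33.0 and 59.5 CPM. A group of 3 libraries is too small to test such a relation, and the part of the remaining Prom1 level in it was not tested.

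**Figure D2:**
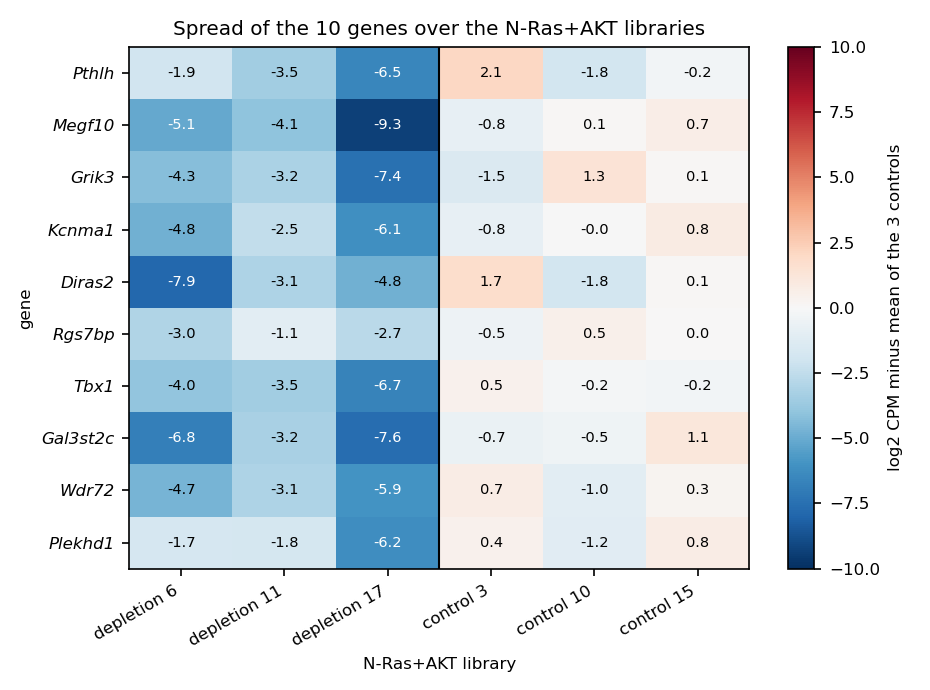
Each cell is a gene's log2 CPM in 1 N-Ras+AKT library minus its mean over the 3 controls, with the value printed, for depletion libraries 6, 11 and 17 on the left of the line and controls 3, 10 and 15 on the right. Blue is lower and red higher than the control mean. Depletion library 17 is the lowest for 8 of the 10 genes, and the highest control differs from gene to gene.

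The controls did not share 1 order. Control 3 was highest for Diras2, Wdr72, Tbx1 and Pthlh, control 15 for Megf10, Gal3st2c, Kcnma1 and Plekhd1, and control 10 for Grik3 and Rgs7bp. The ratio of the highest to the lowest control ran from 1.63 for Tbx1 to 15.2 for Pthlh. For all 10 genes the SD of log2 CPM over the 3 controls was above that of the median gene tested, 0.25. For Pthlh and Diras2, with SDs of 1.95 and 1.80, only 0.805% and 1.01% of all genes tested varied more. Per kilobase of exon the genes were of modest abundance in the controls, between 0.310 CPM per kb for Grik3 and 1.25 CPM per kb for Plekhd1, levels below which 20.1% and 41.4% of genes tested lay.

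The DEN+CCl4 comparison did not enter the choice of the genes. There 0 of the 10 genes passed edgeR's quasi-likelihood test at an adjusted p under 0.05, where 0.37% of all genes tested passed. DESeq2 and limma voom called 1 of them each, and 2 had an unadjusted p under 0.05. Rgs7bp averaged 43.7 ± 13.3 CPM after depletion and 7.36 ± 1.93 CPM in controls (SD, n = 3 each), a log2 fold change of 2.57 (SE 0.46) with edgeR's adjusted p = 0.0507, which just misses the threshold. Every depletion library was far above the highest control. The call depended on the setting: the adjusted p was 0.0169 with limma voom, 0.0415 with the 6 libraries of the model alone, 0.145 without depletion library 6 and 0.201 without control 7, and over all alternatives the log2 value stayed between 2.31 and 2.80. It passed without N-Ras+AKT depletion library 11 (0.0206), without N-Ras+AKT depletion library 17 (0.0480) and without DEN+CCl4 depletion library 10 (0.0378).

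Tbx1 averaged 0.388 ± 0.0382 CPM in the DEN+CCl4 depletion libraries and 0.109 ± 0.0561 CPM in controls (SD, n = 3 each), from 37 and 11 counts. The log2 fold change of 1.78 (SE 0.65) had edgeR's unadjusted p = 0.0177 and adjusted p = 0.176. Kcnma1 averaged 1.17 ± 0.822 CPM after depletion and 0.529 ± 0.168 CPM in controls, and its log2 fold change of 1.14 (SE 0.82) had an adjusted p of 0.494 by the same test. Library 6 carried that difference, and without it the log2 value was 0.41. Rgs7bp and Tbx1 had all depletion libraries above all controls, as did 11.5% of genes tested, and the groups of Kcnma1 overlapped. The other 7 genes had too few counts in this model for a fold change, so a response of theirs was not detectable at this depth.

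Rgs7bp and Tbx1 thus combined higher values in all DEN+CCl4 depletion libraries with lower values in all N-Ras+AKT depletion libraries, a pattern held by 2.05% of genes tested. The difference between the depletion effects, N-Ras+AKT minus DEN+CCl4, was -4.63 (SE 0.66) for Rgs7bp and -6.09 (SE 0.84) for Tbx1 on the log2 scale, and it was not tested because the N-Ras+AKT fall chose the genes. Over all genes tested this difference passed for 11.6%, while the contrasts between the models passed for 40.6% among controls and 33.7% after depletion. The times after the last tamoxifen dose, 6 and 16 days, differed between the models as well.

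**Figure D3:**
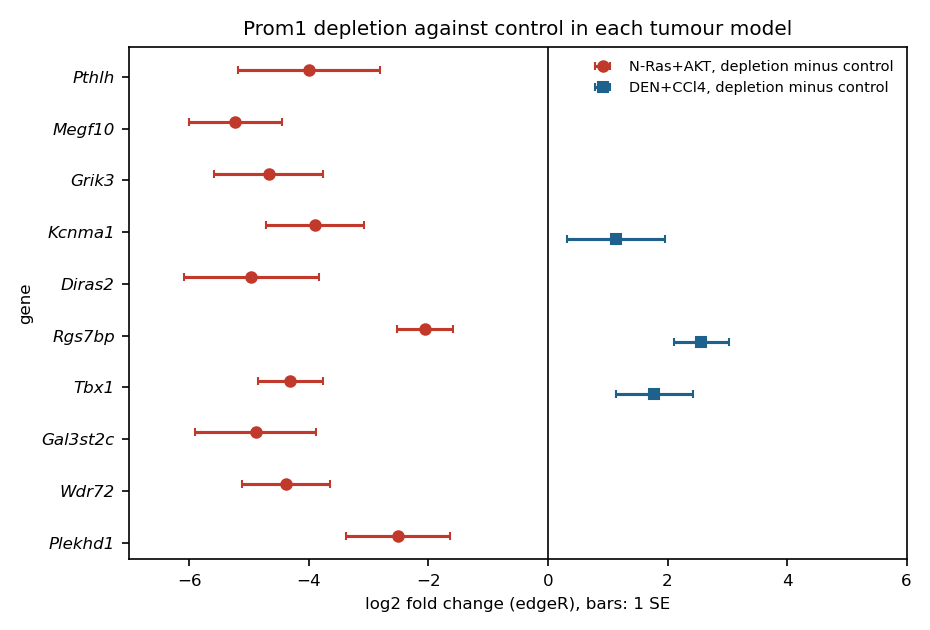
Log2 fold change of depletion against control from edgeR (horizontal axis, bars of 1 SE) for the N-Ras+AKT model (circles) and, for the 3 genes with enough counts, the DEN+CCl4 model (squares). All circles lie below 0, between -5.23 and -2.06, and the squares of Kcnma1, Tbx1 and Rgs7bp lie at 1.14, 1.78 and 2.57.

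To place the genes, the profile over the 12 libraries was compared as log2 CPM after taking out each gene's mean, and likeness was measured as the root-mean-square difference in log2 units, with small values for like profiles. The closest pair among the 10 was Tbx1 and Kcnma1 (0.87) and the farthest Plekhd1 and Rgs7bp (4.71). Rgs7bp was also farthest from the median profile of the 10 (3.55, against 0.60 to 1.84 for the other 9). Among all other genes tested, the nearest to the median profile were Anxa10 (0.52), which codes for an annexin, and Ankrd1 (0.67), a known target of YAP signalling. Anxa10 averaged 0.0887 CPM after depletion and 1.39 CPM in controls of the N-Ras+AKT model and was at 0 in the DEN+CCl4 libraries, and Ankrd1 averaged 4.88 CPM after depletion and 34.2 CPM in controls of the N-Ras+AKT model, and 0.593 CPM after depletion and 0.453 CPM in controls of the DEN+CCl4 model. The other 8 nearest were 3830432H09Rik, Gm47577, Slit2, Fstl3, C530044C16Rik, Ehf, Pcsk1 and Nrg2. The nearest single genes were Sgpp2 for Kcnma1 (0.58), Ctnna2 for Wdr72 (0.64), 3830432H09Rik for Pthlh (0.73), Cdh6 for Tbx1 (0.76), 1700049E15Rik for Plekhd1 (0.78) and for Megf10 (1.02), Zim1 for Gal3st2c (0.95), Lgals2 for Grik3 (0.98) and Anxa10 for Diras2 (1.16). For Rgs7bp it was Cyp3a16 (0.44), a cytochrome P450 of hepatocytes with 0.640 CPM after depletion and 2.72 CPM in controls of the N-Ras+AKT model, and 12.7 CPM after depletion and 2.84 CPM in controls of the DEN+CCl4 model. Reads of Cyp3a16 may be shared with its near-identical relatives, so that value is uncertain.

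The nearest protein-coding genes on the chromosome that could be tested did not follow the genes they flank. For Gal3st2c and Rgs7bp neither neighbour could be tested. Of 20 neighbours, 3.303 to 656 kb away, 13 could be tested, and their log2 fold changes in the N-Ras+AKT model ran from -0.75 to 0.90. By edgeR's test 2 were higher and 1 was lower after depletion, 3 of 13 beside 23.7% of all genes tested. Syk, a kinase of immune cells beside Diras2, averaged 11.2 ± 1.98 CPM after depletion and 6.01 ± 1.17 CPM in controls (log2 fold change 0.90, SE 0.18, adjusted p = 0.00676). C330018D20Rik beside Megf10 had a log2 fold change of 0.56 (adjusted p = 0.0111), and Dlg5 beside Kcnma1, which codes for a scaffold protein of cell junctions, had -0.53 (adjusted p = 0.0273). The call of C330018D20Rik ended without depletion library 17 (adjusted p = 0.0520), and that of Dlg5 without depletion library 11 (0.0825) or 17 (0.106) or control 3 (0.0532) or 15 (0.111). In the DEN+CCl4 model 0 of the 13 passed edgeR's test, 5 had an unadjusted p under 0.05, DESeq2 called 1 and limma voom 0. The other 7 neighbours were at most at 0.191 CPM in any library, among them Neu4, a sialidase gene 3.303 kb from Gal3st2c with 1 count in all.

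**Figure D4:**
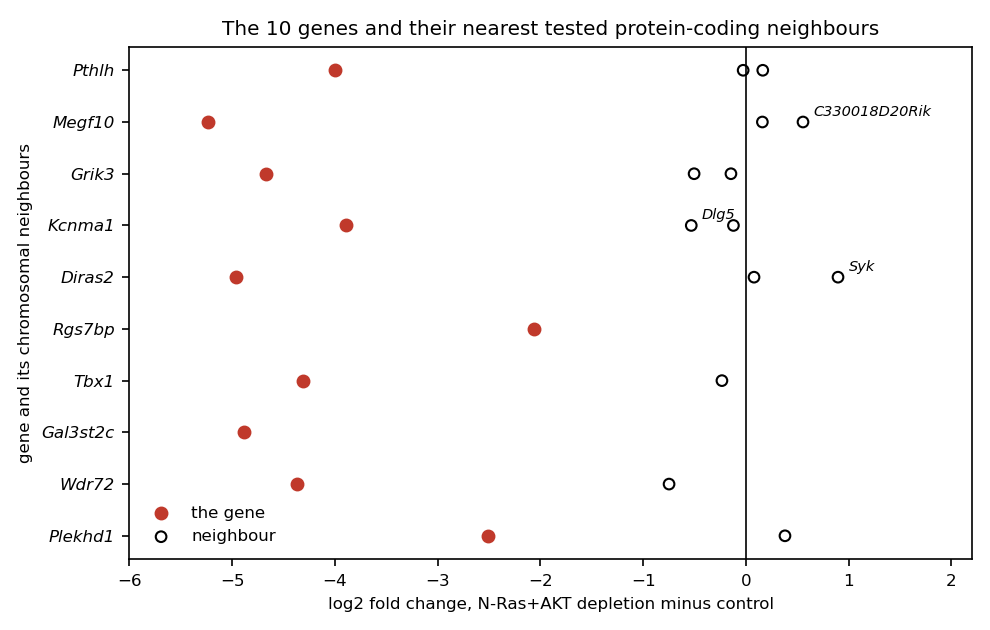
Log2 fold change of depletion against control in the N-Ras+AKT model (horizontal axis) for each of the 10 genes (filled) and its nearest protein-coding neighbours with enough counts (open); neighbours past the test are named. The filled points lie between -5.23 and -2.06 and the open ones between -0.75 and 0.90.

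Relatives and partners of the 10 genes were followed in 10 lists, none of which holds a gene of the 10. Of 143 members tested in the N-Ras+AKT model, 43 passed edgeR's test at an adjusted p under 0.05, 15 higher and 28 lower. That is 10.5% higher and 19.6% lower, beside 12.8% and 10.8% of all genes tested. The list of Ras-MAP kinase output holds 14 of the 28 lower members, and without it 12.7% were higher and 11.9% lower, near the background. Leaving out depletion library 17, control 3 or control 15 brought the 43 calls to 23, 25 and 27. In the DEN+CCl4 model 1 list member passed, Abca7, a lipid transporter with a part in engulfment, with a log2 fold change of 0.79 (SE 0.12, adjusted p = 0.0313), and that call ended without any of 6 libraries, with adjusted p up to 0.171 (without control 7).

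Around Grik3, depletion in N-Ras+AKT tumours went with lower values of 2 of 6 tested ionotropic glutamate receptor genes and higher values of none, with a median log2 fold change of -0.79 beside -0.02 over all genes tested. They were Gria2 (0.0748 ± 0.0698 CPM after depletion and 0.460 ± 0.148 CPM in controls) and Gria3 (4.56 ± 1.49 CPM after depletion and 12.5 ± 6.62 CPM in controls), AMPA receptor subunits. The Gria2 call ended without any of 5 N-Ras+AKT libraries and the Gria3 call without any of 10 libraries, with edgeR's adjusted p up to 0.122 for Gria2 and 0.164 for Gria3, both without depletion library 17. Around Kcnma1, Kcnn4, the intermediate-conductance calcium-activated potassium channel, averaged 0.664 ± 0.245 CPM after depletion and 3.73 ± 1.23 CPM in controls (log2 fold change -2.49, SE 0.45, adjusted p = 0.00476). It was the 1 lower gene of 7 tested, and with library totals 3 were lower and none was higher. Kcnn2, a small-conductance relative, was higher (1.02, adjusted p = 0.0333), a call that ended without any of 5 N-Ras+AKT libraries, with adjusted p up to 0.129 without depletion library 17.

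Around Pthlh, the receptor gene Pth1r averaged 3.57 ± 0.948 CPM after depletion and 1.73 ± 0.539 CPM in controls, so the receptor was higher where the ligand was lower (log2 fold change 1.04, adjusted p = 0.0387). That call ended without any of 7 libraries, with adjusted p up to 0.132 without depletion library 6. Of the hedgehog genes in the same list, Smo, the signal transducer of the pathway, averaged 8.44 ± 2.75 CPM after depletion and 20.5 ± 2.02 CPM in controls (-1.28, SE 0.19, adjusted p = 0.00334). Hhip, which binds and holds back hedgehog ligands, was higher (2.71, adjusted p = 0.0424), a call that ended without any of 10 libraries, with adjusted p up to 0.131 without control 15. In all 2 of 10 tested members were higher and 1 was lower, with a median of 0.18, and with library totals in place of TMM factors 1 was higher and 2 were lower.

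Around Rgs7bp, 2 of 15 tested RGS genes and partners were higher and 4 were lower. Rgs2 averaged 17.8 ± 8.95 CPM after depletion and 109 ± 55.2 CPM in controls (-2.61, SE 0.49, adjusted p = 0.00655), and Rgs5, a marker of pericytes too, averaged 49.2 ± 27.6 CPM after depletion and 277 ± 83.1 CPM in controls (-2.50, SE 0.46, adjusted p = 0.00606). Rgs7, an R7 RGS protein that Rgs7bp binds, went the other way (2.32, SE 0.58, adjusted p = 0.0154), with 0.949 ± 0.472 CPM after depletion and 0.186 ± 0.0392 CPM in controls. Rgs16 was higher as well (3.38, SE 0.85, adjusted p = 0.0188). The Rgs7 call ended without depletion library 17 (0.0721) or control 15 (0.0590), and the Rgs16 call without depletion library 17 (0.0597), control 3 (0.0695), control 10 (0.0525) or control 15 (0.0639). Gnb5, chosen here after its values were seen because it is the shared partner of this complex, was lower (-2.03, SE 0.51, adjusted p = 0.0164, and 0.0502 without control 15). The other lower member past the test was Rgs9bp (-2.09, SE 0.59, adjusted p = 0.0253), also named after its values were seen. It averaged 0.121 ± 0.0481 CPM after depletion and 0.527 ± 0.238 CPM in controls, and its call was not followed with libraries left out.

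Around Megf10, 4 of 18 tested engulfment genes were higher and 2 were lower, with a median of -0.14. Timd4, a phosphatidylserine receptor of resident macrophages, averaged 7.94 ± 2.77 CPM after depletion and 1.26 ± 0.704 CPM in controls (2.65, SE 0.49, adjusted p = 0.00537). Stab2, a scavenger receptor of liver sinusoidal endothelium, had a log2 fold change of 1.26 (adjusted p = 0.0123, and 0.0516 without control 3 and 0.0503 without control 15). Megf6 (-1.42, adjusted p = 0.0306) and Tyro3 (-1.22, adjusted p = 0.0224) were lower, and both calls ended without depletion library 6 or 17 or control 3 or 15, with adjusted p up to 0.119 for Megf6 and 0.0890 for Tyro3. Around Tbx1, Tbx3 was the 1 of 4 tested T-box genes to pass, with 14.3 ± 3.95 CPM after depletion and 5.18 ± 0.786 CPM in controls (1.46, SE 0.26, adjusted p = 0.00451).

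Around Diras2, 1 of 24 tested small GTPases was higher and 4 were lower, with a median of -0.09. Rem2, a regulator of calcium channels, had a log2 fold change of -2.37 (SE 0.46, adjusted p = 0.00602), Rasl10a had -1.80 (SE 0.41, adjusted p = 0.0105) and Ralb, an effector branch of Ras, had -0.86 (SE 0.18, adjusted p = 0.00829). The higher one, Rasl11b (1.00, adjusted p = 0.0325), lost its call without depletion library 11 (0.0725) or 17 (0.115) or control 3 (0.117) or 15 (0.0927). Around Gal3st2c, 0 of 13 tested sulfotransferase genes passed edgeR's test, 5 had an unadjusted p under 0.05, DESeq2 called 0 and limma voom 2. Around Wdr72, whose relative Wdr7 belongs to the rabconnectin complexes that act on the proton pump V-ATPase, 4 of 21 tested members were higher and none was lower, but with library totals 2 were higher and 4 lower. The 4 were Atp6v0d2 (2.41, SE 0.44, adjusted p = 0.00516), Dmxl2 (1.05, SE 0.19, adjusted p = 0.00508), Wdr7 (0.50, adjusted p = 0.0243) and Atp6v0d1 (0.33, adjusted p = 0.0254). Wdr7 lost its call without depletion library 6 (0.0711) or 17 (0.110) or control 3 (0.0815), and Atp6v0d1 without depletion library 11 (0.0622) or 17 (0.0824) or control 15 (0.0807).

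Of 25 genes of Ras-MAP kinase output, 14 were lower in N-Ras+AKT depletion libraries than in controls and none was higher, with a median of -1.26. Of all genes tested 10.8% were lower and 12.8% higher. The part of lost cells in these lower values was not tested. Spry2, a feedback inhibitor, averaged 1.28 ± 0.562 CPM after depletion and 5.20 ± 0.992 CPM in controls (-2.02, SE 0.32, adjusted p = 0.00363). Etv4, an ETS factor, averaged 1.88 ± 1.53 CPM after depletion and 10.8 ± 1.61 CPM in controls (-2.51, SE 0.63, adjusted p = 0.0182, and 0.0535 without control 15). Ier3, an immediate early gene, had a log2 fold change of -2.44 (adjusted p = 0.0242) and Dusp4, a phosphatase of MAP kinases, one of -1.91 (adjusted p = 0.0156), and without control 3 these were at 0.0946 and 0.0580.

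Markers of cell types in which the 10 genes are at home were in part as abundant as the genes. The neuron, neuroendocrine and glial sums were lower after depletion, but in each a large part of the control sum came from the 1 gene past the test. The median log2 fold change of the tested members was 0.25 for neuron, -2.18 for neuroendocrine and -0.86 for glial markers. Summed over 12 neuron markers the N-Ras+AKT depletion libraries had 10.2 to 11.1 CPM and their controls 13.0 to 28.8 CPM. The 1 of 5 tested neuron markers past edgeR's test was Map2, a microtubule protein of dendrites. It averaged 1.34 ± 1.03 CPM after depletion and 13.4 ± 7.08 CPM in controls (log2 fold change -3.32, SE 0.63, adjusted p = 0.00616), and this call held without each library. The other tested neuron markers did not share this fall. Syt1 (8.15 CPM after depletion and 6.87 CPM in controls), Rbfox3 and Syp had higher means after depletion and Tubb3 a slightly lower one, none past the test. For 9 neuroendocrine markers the sums were 0.880 to 1.89 CPM after depletion and 3.39 to 8.00 CPM in controls, with 1 of 4 tested lower, Pcsk1, a prohormone convertase (0.290 ± 0.385 CPM after depletion and 3.80 ± 2.15 CPM in controls, -3.68, SE 0.88, adjusted p = 0.0144). For 10 glial markers they were 7.40 to 10.1 CPM after depletion and 13.3 to 15.3 CPM in controls, with 1 of 7 tested lower, Mbp, a myelin protein (2.27 ± 1.06 CPM after depletion and 7.15 ± 1.82 CPM in controls, -1.65, SE 0.41, adjusted p = 0.0151). Without depletion library 6 the adjusted p of Pcsk1 was 0.0521, without depletion library 11 its log2 fold change was -5.69, and without control 15 the adjusted p of Mbp was 0.0527. Skeletal muscle markers (2.44 to 3.73 CPM after depletion and 1.86 to 2.39 CPM in controls) and kidney tubule markers (0.191 to 0.316 CPM after depletion and 0.363 to 0.515 CPM in controls) had 0 of 1 and 0 of 2 tested members past the test. Squamous markers had 24.2 to 41.0 CPM after depletion and 10.0 to 27.3 CPM in controls, with 0 of 3 past the test, and smooth muscle markers 14.9 to 36.6 CPM after depletion and 29.9 to 44.1 CPM in controls, with 1 of 6 lower. The part of these cell types in the levels of the 10 genes was not tested.

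Bile duct epithelium was the marker list with the most lower members. Summed over 12 markers, most of it from the secreted protein gene Spp1, it was 2179, 3534 and 315 CPM in N-Ras+AKT depletion libraries 6, 11 and 17 and 9275, 7254 and 10498 CPM in controls 3, 10 and 15, and 8 of 11 tested members were lower after depletion. Sox9, a bile duct transcription factor, averaged 10.9 CPM after depletion and 62.4 CPM in controls. Cftr, a chloride channel of bile duct cells, averaged 1.21 CPM after depletion and 27.2 CPM in controls. Sox9 and Cftr were named outside the rule for naming genes. The summed level in DEN+CCl4 tumours was 64.1 to 181 CPM after depletion and 215 to 522 CPM in controls. The libraries of the N-Ras+AKT model took the same order within each group for this sum and for the sum of the 9 genes without Rgs7bp, which was 42.0, 33.0 and 59.5 CPM in controls 3, 10 and 15, and the neuroendocrine sum took that order too. Of 12 hepatocyte markers 5 were higher after depletion, as were 7 of 10 macrophage markers, 5 of 9 tested lymphocyte markers and 4 of 11 endothelial markers, while 1 endothelial marker was lower, and of 12 fibroblast and stellate cell markers 1 was higher and 2 were lower, beside 12.8% higher and 10.8% lower of all genes tested. With library totals the endothelial list had 2 higher and 3 lower and the hepatocyte list 4 higher and 1 lower. The part of bile duct or other cells in the fall of the 10 genes was not tested.

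**Figure D5:**
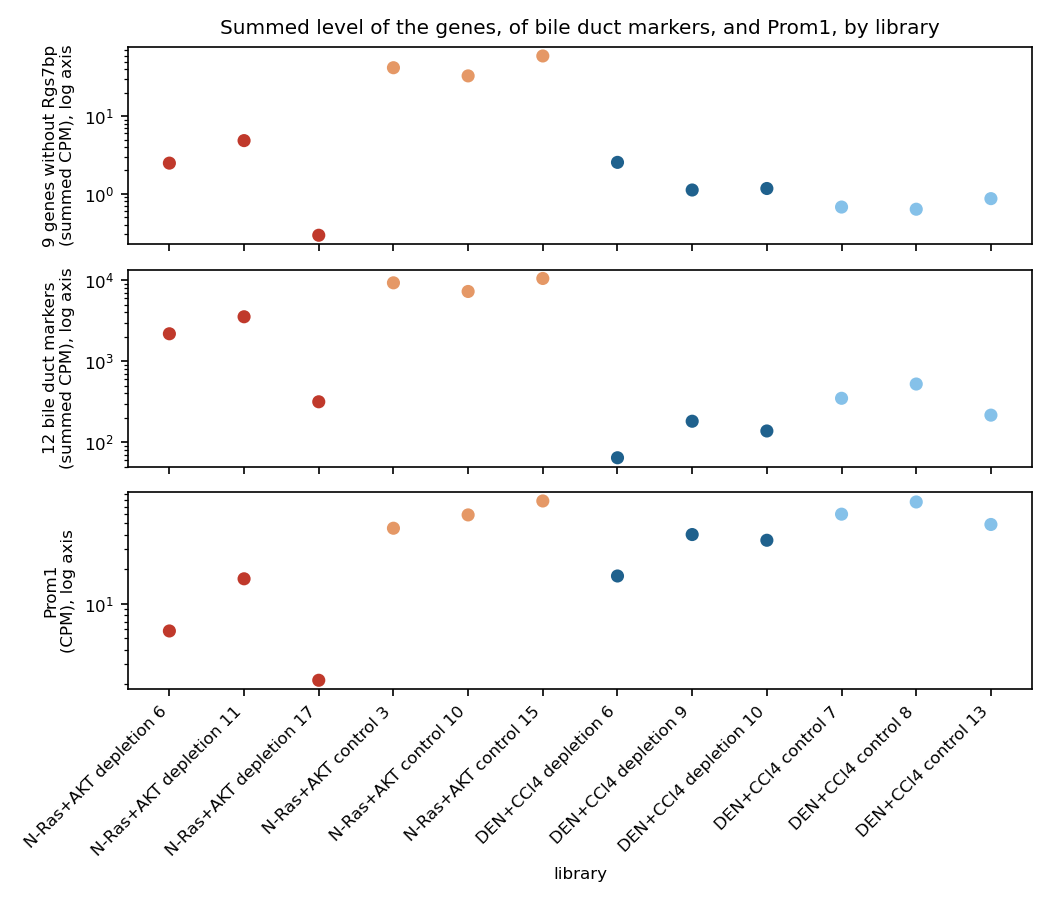
Summed CPM of the 9 genes without Rgs7bp (top), summed CPM of 12 bile duct markers (middle) and Prom1 CPM (bottom) in each library, on log axes, from left to right N-Ras+AKT depletion, N-Ras+AKT control, DEN+CCl4 depletion and DEN+CCl4 control. All panels show the 3 N-Ras+AKT depletion libraries under the 3 controls, with library 17 the lowest, and the sum of the genes is at most 2.54 CPM in the DEN+CCl4 libraries.

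Most of the 10 genes belong to a larger set of genes seen in the N-Ras+AKT controls and near 0 in the other model. A mean of at least 1 CPM in the N-Ras+AKT controls together with means under 0.1 CPM in both DEN+CCl4 groups, limits chosen after the values were seen, was met by 73 genes, 7 of the 10 and 66 others; Tbx1, Kcnma1 and Rgs7bp did not meet it. Of these 66, 59 had a lower mean in the N-Ras+AKT depletion libraries than in the controls, 41 had all depletion libraries below all controls, and the median log2 fold change was -2.24 over the 62 that were tested. These counts are a description, since a gene that is near 0 elsewhere can enter the set only by a high value in the controls.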

How the data were processed

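Bulk RNA-seq was measured in 12 libraries, 3 in each of 4 groups read from the sample titles. Per the labels' protocols, RNA of frozen tumours was made into poly-A libraries with a KAPA mRNA HyperPrep kit. The authors deposited 1 table of whole-number counts per gene, not normalized. The submitters' processing notes name RSEM 1.3.1, STAR 2.7.3 and, for the genome, mm10, without a role or order, along with Cell Ranger 3.0.2. These counts may therefore be estimates rounded to whole numbers, with a model dividing reads between near-identical genes. Which annotation release, strand setting and filters were used is not given in the sources used here. Single-cell data (6 samples) were left out.

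Identifiers were matched without version to GENCODE M21 (GRCm38), and promoters are RefSeq's on GRCm38.p6. Counts were fitted with edgeR 4.0.16 in R 4.3.3 (quasi-likelihood, robust, TMM factors of 0.773 to 1.323, filterByExpr, 8 residual degrees of freedom), with all 12 libraries in 1 fit of 4 group means. P-values were two-sided and adjusted over all 17013 genes by the Benjamini-Hochberg method, with a threshold of 0.05. The fit had a common biological coefficient of variation of 0.238. The script was tested on simulated data. CPM are given as mean ± SD over 3 libraries. Intervals of ratios are exact (Clopper-Pearson) and cover counting error only.

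Alternatives were RLE size factors, library totals, no filter, a stricter filter (1 CPM in 3 libraries), DESeq2 1.42.0, limma 3.58.1 with voom, the 6 libraries of a model alone, and leaving out each library, or both libraries that stood apart. The 10 genes and the lists were chosen with earlier results of these data known. Genes named by rule were the 10, Prom1, and up to 4 per list with the largest change past the test. So were list members past the test in DEN+CCl4, the nearest neighbours on the chromosome and the genes of most similar profile. Gnb5, Rgs9bp, Gal3st2, Ftl2-ps and the cell type markers were named outside this rule. Replicate libraries differed far beyond sampling noise, so none was counted as a repeat of another.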

Additional observations from a re-analysis of the deposited data

Results flagged for a closer look

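Tbx1 and Rgs7bp differed in direction between the 2 models. Every depletion library was below every control in N-Ras+AKT tumours and above every control in DEN+CCl4 tumours. In DEN+CCl4 tumours neither gene passed edgeR's test (adjusted p = 0.176 for Tbx1 and 0.0507 for Rgs7bp). Tbx1 had 37 counts after depletion and 11 in controls there, and 11.5% of genes tested had all depletion libraries above all controls. The difference of the depletion effects, N-Ras+AKT minus DEN+CCl4, was -6.09 for Tbx1 and -4.63 for Rgs7bp on the log2 scale. It was not tested, because the fall in the N-Ras+AKT model chose both genes.

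For 12 relatives of the genes the same difference passed edgeR's interaction test at an adjusted p under 0.05 over all genes tested, where 11.6% of genes passed. The effect was higher in the N-Ras+AKT model for Rgs7 (3.63, adjusted p = 0.0206), Atp6v0d2 (3.21, adjusted p = 0.0126), Timd4 (2.47, adjusted p = 0.0407), Stab2 (2.15, adjusted p = 0.0130), Pth1r (2.05, adjusted p = 0.0198) and Tbx3 (1.22, adjusted p = 0.0494). It was lower for Rasl10a (-2.92, adjusted p = 0.0212), Rgs2 (-2.86, adjusted p = 0.0257), Rgs5 (-2.19, adjusted p = 0.0498), Spry2 (-1.61, adjusted p = 0.0372), Smo (-0.95, adjusted p = 0.0407) and Abca7 (-0.78, adjusted p = 0.0181). Among the neighbours on the chromosome, the difference was 1.40 for Syk beside Diras2 (adjusted p = 0.0115) and -1.21 for Zc3h12a beside Grik3 (adjusted p = 0.0207).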

How the results depend on the processing

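All 10 genes had a log2 fold change below 0 in the N-Ras+AKT model under every alternative run that gave a value, and no single-gene value followed here changed sign. Of 37 single-gene calls followed among relatives, markers, neighbours and Prom1, 15 held without each library in turn and 22 ended without at least 1. Genes called by edgeR for depletion in the N-Ras+AKT model numbered 4027, against 2626 with the 6 libraries of the model alone, 2429 without both libraries that stood apart and 1768 to 4611 with 1 library left out, the lowest without depletion library 17. In the DEN+CCl4 model 63 genes were called, against 41 with library totals, 171 with no filter, 1066 with DESeq2, 13 with the 6 libraries alone, 26 without both libraries that stood apart and 2 (without control 8) to 465 (without depletion library 10) with 1 left out. At an unadjusted p under 0.05 there were 3186. N-Ras+AKT controls against DEN+CCl4 controls gave 6901 calls, against 10460 with library totals and 5349 to 7503 with 1 left out, and the same contrast after depletion gave 5740 (4414 to 5839). The difference of the depletion effects gave 1970, against 2970 with library totals, 2984 with DESeq2, 844 without both libraries and 895 to 2326 with 1 left out.

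Of the 10 genes, 0 were called in the DEN+CCl4 model and 1, Rgs7bp, under RLE size factors, the stricter filter, DESeq2, limma voom and the 6 libraries alone, and 0 to 1 with 1 library left out. List members called there numbered 1, against 2 with RLE size factors, 4 with no filter, 2 with the stricter filter, 8 with DESeq2, 2 with limma voom, 0 with the 6 libraries alone, 0 without both libraries and 0 to 5 with 1 left out. In the N-Ras+AKT model 43 list members were called (23 to 50 with 1 left out), and 3 neighbours (1 to 4). DESeq2 called 1 neighbour in the DEN+CCl4 model, against 0 (0 to 0). Library totals, an alternative chosen after seeing the data, moved the median log2 fold change of all genes tested to -0.23 for depletion in the N-Ras+AKT model, 0.12 in the DEN+CCl4 model and 0.68 between the controls. With them the median log2 fold change in the N-Ras+AKT model turned to -0.03 for the parathyroid hormone and hedgehog list (0.18 with TMM), -0.20 for the rabconnectin and V-ATPase list (0.00464 with TMM) and -0.10 for endothelial markers (0.09 with TMM). No paired analysis was possible because the groups compared share fewer than 2 replicate numbers. With 3 libraries a group and 0 to 3 counts for 7 of the genes in each DEN+CCl4 library, changes of those 7 in that model were beyond what the depth can show.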

Other observations

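DEN+CCl4 control 8 was the 1 library of its model with reads of 8 of the 10 genes, and it held a single read each of Megf10, Diras2, Wdr72 and Pthlh, at 0.0276 CPM. The other DEN+CCl4 libraries had 4 to 7 of the 10 genes at 0 counts. In the N-Ras+AKT model all 10 genes had reads in each of the 3 controls and in depletion library 11, while depletion library 17 had 3 at 0 counts and library 6 had 1.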
